A study of Bos taurus with 6 samples.

Results

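Genes for the scaffold of the sarcomere, the contractile unit of striated muscle, were examined in a back muscle, the longissimus dorsi, of Japanese Black and Holstein steers. A list of 43 symbols was used, which stand for 42 genes because KBTBD10 is an older symbol of KLHL41. It names sarcomeric actins, actinins, proteins of the Z-disc and the M-band, filament binding and capping proteins, the intermediate filament desmin, and factors for assembly. Myosins, troponins and tropomyosins were not part of it. A gene entered with its brightest probe set among those annotated with that symbol alone, by the mean of log2(signal + 16) over all arrays. This gave 27 genes, of 9155 named in this way on the array. The other 15 were not analysed here because no probe set carried their symbol alone: TTN, NRAP, MYBPC2, MYOM1, MYOM2, MYOM3, PDLIM5, LMOD2, LMOD3, SYNPO2, SYNM, XIRP1, XIRP2, MURC and SMYD1. The M-band was therefore not represented.

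The animals were 3 Japanese Black steers, a beef breed known for its marbled meat, and 3 Holstein steers, a dairy breed. All 6 were male and had received energy-rich feed, so a response to the feed could not be measured. Total RNA of each animal was hybridised to its own Affymetrix array. Median signals per array lay between 48.5 and 54.7 intensity units, and so few arrays limit the precision throughout. The summed signal of 5 of 7 listed markers of the muscle fibre, CKM and MB among them, was 55446 to 57615 in Japanese Black and 56181 to 57309.6 in Holstein. That sum holds ACTA1, a gene of the list, and without it was 40768 to 42516 in Japanese Black and 42574 to 43251 in Holstein. The breeds did not overlap in that smaller sum, which was lower in Japanese Black by a narrow margin. Of its genes only CKM did not overlap, at 12544 ± 544 in Japanese Black and 14170 ± 610 in Holstein (SD, n = 3 each). MB, MYOD1 and TNNT3 overlapped, and TNNT3 had the higher mean in Japanese Black. The part of this sum in the values of the scaffold genes was not tested. The summed signals of endothelial, fibroblast, adipocyte and leukocyte markers overlapped between the breeds. In a tissue sample, fewer cells of a type and less RNA per cell cannot be told apart.

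As background, thin filaments of actin are anchored at the Z-disc, where alpha-actinin crosslinks them. Capping proteins close both ends of the thin filament, nebulin runs along it, and myosin binding proteins sit on the thick filament. Desmin and filamin C connect the Z-discs with each other and with the cell membrane. Many Z-disc proteins come in forms that differ between slow and fast fibres.

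The muscle actinins read lower in every Japanese Black animal than in any Holstein animal, though no member passed the adjusted threshold. Of the 27 genes 16 read lower and 11 higher in Japanese Black. Their median log2 difference was -0.06, beside 0.01 for all 18012 probe sets tested. Each difference is the mean log2(signal + 16) of Japanese Black less that of Holstein, fitted with limma over the whole table, and the offset of 16 shrinks the differences of dim probe sets. None of the 27 (0) passed an adjusted p of 0.05, which 0.0167% of all probe sets did, and their adjusted p lay between 0.236 and 0.991. At an unadjusted p under 0.05 there were 4 members lower in Japanese Black, ACTN2, ACTN3, FLNC and KLHL41, and 0 higher. The lower ones are 14.8% of the members, beside 5.28% of all probe sets, and the higher ones 0%, beside 7.31%. In both directions together the share of all probe sets was 12.6%. The breeds did not overlap for 5 members on the lower side, ACTN2, ACTN3, PDLIM1, TMOD4 and KLHL41, and for ACTA1 and CAPZB on the higher side. That is 18.5% of the members on the lower side, beside 8.84% of all probe sets, and 7.41% on the higher side, beside 11%. In all it is 25.9% of the members and 19.8% of all probe sets. When single arrays were left out, the lower members at an unadjusted p under 0.05 numbered 3 to 7. The 7 came without Japanese Black 3, with ACTN1, TMOD4 and DES added. The share of all probe sets in those fits is not given here, so this count has no background.

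**Figure D1:**
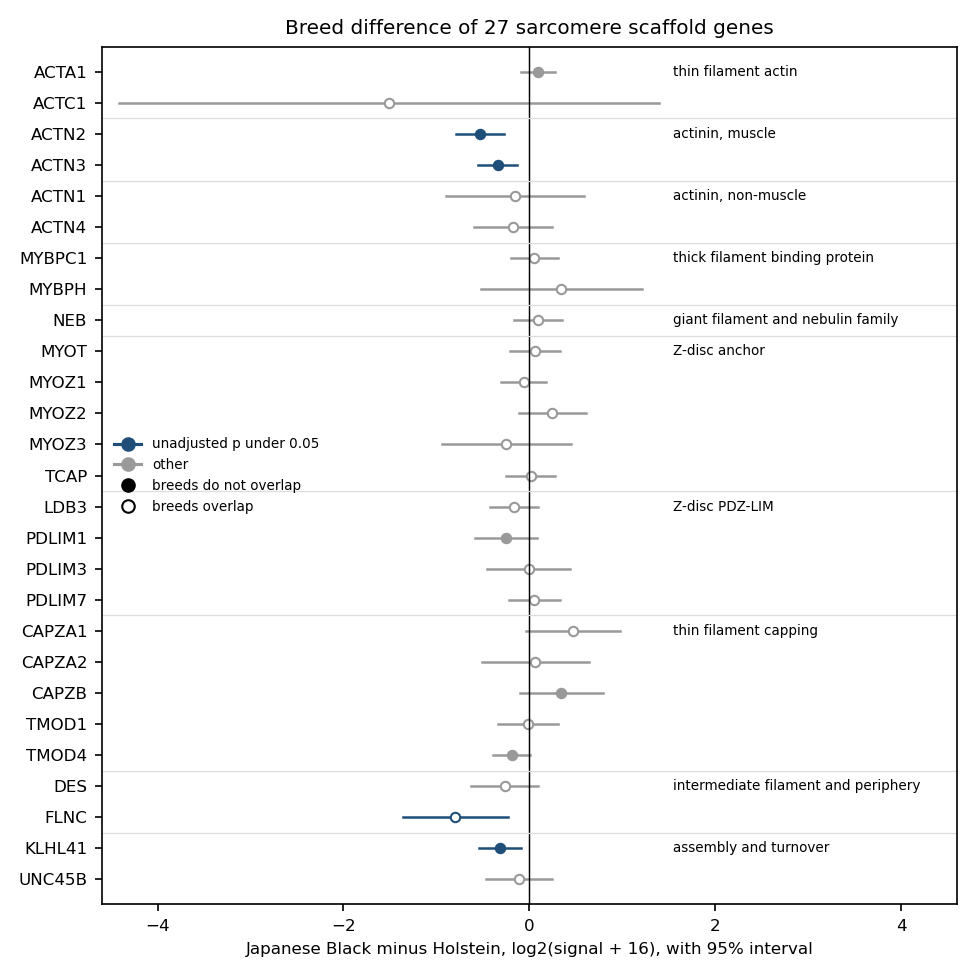
Difference between the breeds for each of the 27 genes, Japanese Black minus Holstein in log2(signal + 16), with limma's 95% interval and grouped by role. The intervals of ACTN2, ACTN3, FLNC and KLHL41 lie below 0, and that of ACTC1 is by far the widest.

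Alpha-actinin crosslinks actin filaments at the Z-disc. ACTN2 encodes the form found in all muscle fibres and in heart. Its signal was 5975, 6178 and 6378 in Japanese Black 1, 2 and 3, and 8761, 7978 and 10116 in Holstein 1, 2 and 3. Every Japanese Black animal lay below every Holstein animal, and the Japanese Black values were close together. The means were 6177 ± 202 in Japanese Black and 8952 ± 1082 in Holstein (SD, n = 3 each). The log2 difference was -0.53 (SE 0.11, 95% interval -0.79 to -0.27), with an unadjusted p of 0.00126 and an adjusted p of 0.236 in limma, the smallest of the members.

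ACTN3, the form restricted to fast fibres, read 8456, 8332 and 9129 in Japanese Black and 10690.3, 10596 and 11589 in Holstein. Again the breeds did not overlap. The difference was -0.34 (95% interval -0.55 to -0.13), with an unadjusted p of 0.00536 and an adjusted p of 0.310 in limma. ACTN2 and ACTN3 were the members that stayed non-overlapping and under an unadjusted p of 0.05 in all 16 alternative fits. Only quantile normalization and median centring could have made them overlap, because the other settings do not reorder the animals for these genes. Across the fits the differences were -0.61 to -0.44 for ACTN2 and -0.38 to -0.29 for ACTN3. The lowest adjusted p of these fits was 0.135.

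The ratio of ACTN2 to ACTN3 within an array, on the log2 scale, was -0.50, -0.43 and -0.52 in Japanese Black and -0.29, -0.41 and -0.20 in Holstein. Every Japanese Black ratio lay below every Holstein ratio. The difference of the ratios was -0.19, with a p of 0.10 in a two-sided exact permutation test over the animals. This is the smallest p that 3 animals against 3 can give, and the adjusted p over the 4 ratios tested was 0.267.

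ACTN1 and ACTN4 encode the non-muscle actinins, which other cells of the tissue also make. ACTN1 read 593, 531 and 1418 in Japanese Black and 804, 924 and 837 in Holstein. Japanese Black 3 was the highest of the 6 animals and the other Japanese Black animals the lowest. ACTN4 averaged 746 ± 144 in Japanese Black and 839 ± 116 in Holstein (SD, n = 3 each). Their differences were -0.15 (95% interval -0.89 to 0.58) and -0.17 (95% interval -0.59 to 0.25). Japanese Black 3 also had the highest summed signal of 8 smooth muscle and pericyte markers. That sum was 10377 to 21056 in Japanese Black and 11768 to 18324 in Holstein, and no marker of the list was at 0. It holds DES, a gene of the list, and without DES was 4294, 4038 and 12564 in Japanese Black and 4753, 9097 and 5758 in Holstein. The part of these cells in the ACTN1 values was not tested.

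**Figure D2:**
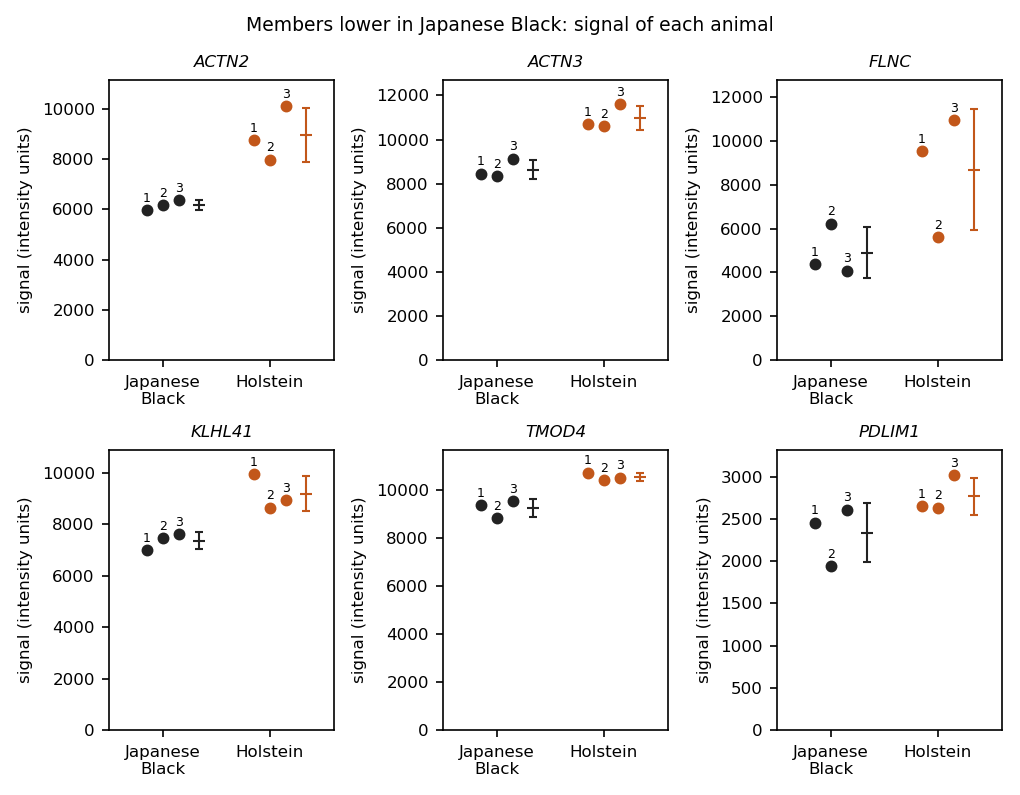
Signal of each animal, in intensity units on axes that start at 0, for 6 genes with negative differences; numbers beside points name the animals, and bars give the mean and SD of 3. ACTN2, ACTN3, KLHL41, TMOD4 and PDLIM1 do not overlap between the breeds, while Holstein 2 lies within the Japanese Black range for FLNC.

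Actin forms the thin filament itself. ACTA1, the skeletal muscle actin, read 14272, 14679 and 15099 in Japanese Black and 14058, 13606 and 13643 in Holstein. The breeds did not overlap, but the difference of 0.09 (95% interval -0.09 to 0.28) was small and the adjusted p 0.637. Its spread within breeds was among the lowest of all probe sets, at a residual SD of 0.03 on the log2 scale. Without moderated variances its unadjusted p was under 0.05. After quantile normalization the breeds overlapped for this gene.

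The array also holds 3 control probe sets for this transcript, which were left out of the fit. The 5′ control averaged 11282 ± 144 in Japanese Black and 12068 ± 147 in Holstein (SD, n = 3 each), a difference of -0.10. In the middle control the order was the other way, 15568 ± 136 in Japanese Black and 14707 ± 217 in Holstein, a difference of 0.08. Toward the 3′ end the difference was 0.02. The direction for ACTA1 thus depended on the part of the transcript that was probed. The ratio of 3′ to 5′ signal was 1.11 to 1.14 in Japanese Black and 1.003 to 1.07 in Holstein for actin. For the elongation factor control it was 0.431 to 0.455 in Japanese Black and 0.305 to 0.405 in Holstein, so this ratio did not overlap either. The GAPDH and cyclophilin ratios overlapped. The part of this gradient in the other members was not tested.

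ACTC1, the actin of the heart and of developing skeletal muscle, was singled out after its values were seen. It read 849.95, 9941 and 835 in Japanese Black 1, 2 and 3, and 10339.5, 713 and 22468 in Holstein 1, 2 and 3. Both breeds held bright and dim animals, and the brightest was 31.5 times the dimmest. Its residual SD within breeds, 2.33 on the log2 scale, ranked 1 among the 18012 probe sets tested, ahead of IRAK1 at 2.32. The fitted difference of -1.51 (95% interval -4.41 to 1.39, adjusted p 0.626 in limma) is therefore of little precision. It was -2.97 without Holstein 2, -2.69 without Japanese Black 2 and -0.50 without Holstein 3. A single probe set carried this symbol alone, so no other such probe set could be set beside it. Probe sets shared with another gene were not examined. The log2 ratio of ACTC1 to ACTA1 differed by -1.60 between the breeds, with overlap and a p of 0.50 in the exact permutation test. That difference was -3.06 without Holstein 2, -2.78 without Japanese Black 2 and -0.59 without Holstein 3.

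Markers of immature fibres and of heart were set beside ACTC1. MYH3, the embryonic myosin heavy chain, read 286, 286 and 259 in Japanese Black and 416, 292 and 290.2 in Holstein. MYH8, the perinatal form, read 274, 212 and 162 in Japanese Black and 399.5, 191 and 166 in Holstein. Holstein 1 was the highest for both. The signals of 4 of 7 cardiac markers (NPPA, TNNT2, TNNI3 and MYBPC3) were summed. The sum was 128 to 164 in Japanese Black and 179 to 271 in Holstein, without overlap. It was highest in Holstein 3 and lowest in Japanese Black 2. All 4 had negative differences, at a median of -0.36. Only NPPA did not overlap by itself, or 25% of the 4, beside 19.8% of all probe sets. TNNI3, the cardiac troponin I, read 17.0, 13.9 and 29.7 in Japanese Black and 34.4, 11.7 and 86.9 in Holstein. Its Holstein animals stood in the order they had for ACTC1, while Japanese Black 2, bright for ACTC1, was the lowest of its breed. NPPA, TNNT2 and MYBPC3 did not share that order, and Holstein 1 was the lowest Holstein animal for each of them. No marker of these 4 was listed at 0, all were dim, and NPPB, MYH6 and MYL7 had no probe set of their symbol alone. Their part in the ACTC1 and ACTN2 values was not tested.

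**Figure D3:**
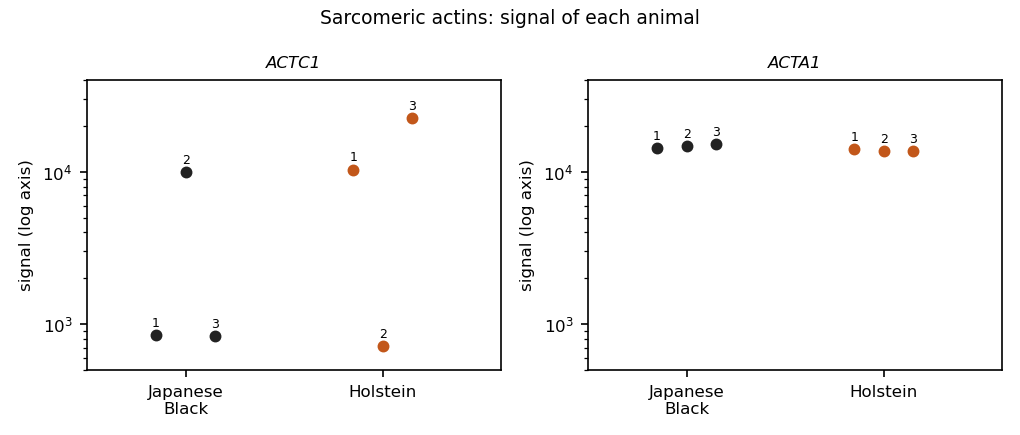
Signal of the sarcomeric actins in each animal on a log axis, with numbers naming the animals of each breed. ACTC1 lies between 713 and 850 units in 3 animals and between 9941 and 22468 in the other 3, while ACTA1 stays between 13606 and 15099 in all 6.

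Thin filaments are capped by the CapZ heterodimer at the Z-disc and by tropomodulins at the other end. The 3 CapZ genes shared a low value in Holstein 3. CAPZA1, an alpha subunit, read 988, 1215 and 1406 in Japanese Black and 947, 1064 and 624 in Holstein. CAPZB, the beta subunit, read 746, 770.02 and 869 in Japanese Black and 706, 730.3 and 466 in Holstein. CAPZA2, the other alpha subunit, read 1237, 1343 and 1358 in Japanese Black and 1697, 1455 and 795 in Holstein. For CAPZA2 the other Holstein animals were the highest of all 6, so its breeds overlapped, as they did for CAPZA1.

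The log2 differences were 0.47 for CAPZA1 (95% interval -0.04 to 0.97), 0.34 for CAPZB (95% interval -0.10 to 0.79) and 0.06 for CAPZA2 (95% interval -0.51 to 0.64). CAPZB did not overlap between the breeds, and its difference was 0.14 without Holstein 3. The hybridisation controls of Holstein 3, added bacterial and phage transcripts, lay 0.39 above the mean of all arrays on the log2 scale and those of the others between -0.18 and 0.06. Their part in these values was not tested.

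TMOD4, the tropomodulin of skeletal muscle, read 9354, 8809 and 9526 in Japanese Black and 10703, 10393 and 10494 in Holstein. Again no values overlapped and the spread was small, with a difference of -0.19 (95% interval -0.39 to 0.01) and an adjusted p of 0.412. After quantile normalization the breeds overlapped. TMOD1, the tropomodulin found also in heart and red cells, averaged 1661 ± 106 in Japanese Black and 1682 ± 203 in Holstein (SD, n = 3 each), a difference of -0.01 (95% interval -0.33 to 0.31). The ratio of TMOD1 to TMOD4 differed by 0.18 between the breeds, with overlap and a p of 0.20 in the exact permutation test.

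At their brightest probe sets, filament binding proteins differed by less than the spread between animals. NEB, the nebulin of the thin filament, read 8889, 8609 and 10078 in Japanese Black and 8686, 9539 and 7687 in Holstein at its brightest probe set, a difference of 0.09 (95% interval -0.17 to 0.35). MYBPC1, the slow form of myosin binding protein C, had a difference of 0.05 (95% interval -0.20 to 0.30). MYBPH, a related thick filament protein, had one of 0.34 (95% interval -0.52 to 1.21). For MYBPH the values were 1371, 1324 and 2038 in Japanese Black and 2034, 620.4 and 1415 in Holstein, with Holstein 2 far below the others.

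Of the 5 anchor proteins of the Z-disc none (0) reached an unadjusted p of 0.05. The differences were 0.06 for MYOT (myotilin, an actinin and filamin partner), -0.06 for MYOZ1 and 0.25 for MYOZ2. They were -0.25 for MYOZ3 and 0.01 for TCAP, the telethonin that caps titin. The 95% intervals were -0.20 to 0.32 for MYOT, -0.30 to 0.18 for MYOZ1 and -0.25 to 0.28 for TCAP. They were wider for MYOZ2, -0.11 to 0.61, and MYOZ3, -0.94 to 0.44. MYOZ1 to MYOZ3 encode myozenins, also called calsarcins, which tie calcineurin to actinin.

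MYOZ2 is the form of slow fibres and heart and MYOZ1 that of fast fibres. The log2 ratio of MYOZ2 to MYOZ1 was -0.94, -0.75 and -0.83 in Japanese Black and -0.86, -1.07 and -1.51 in Holstein. These values overlapped at Holstein 1 and were lowest in Holstein 3. The difference of 0.31 had a p of 0.20 in the exact permutation test. It was 0.12 without Holstein 3 and 0.45 without Holstein 1. MYOZ3, a further form of fast fibres, read 725, 703 and 910.2 in Japanese Black and 1599.5, 666 and 734 in Holstein. A single Holstein animal thus stood above all others.

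Proteins with a PDZ and a LIM domain bind actinin at the Z-disc. PDLIM1 read 2457, 1944 and 2609 in Japanese Black and 2651, 2635 and 3020.2 in Holstein. All Japanese Black values lay below the Holstein values, though by a narrow margin. The difference was -0.25 (95% interval -0.59 to 0.08) with an adjusted p of 0.491, and it was -0.13 without Japanese Black 2. LDB3, also called ZASP or cypher, had a difference of -0.17 (95% interval -0.43 to 0.09). PDLIM3 differed by -0.01 (95% interval -0.45 to 0.44) and PDLIM7 by 0.05 (95% interval -0.22 to 0.33).

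FLNC, the filamin of muscle, had the largest difference of the members with an unadjusted p under 0.05. It read 4378, 6218 and 4081 in Japanese Black and 9517, 5618 and 10924 in Holstein. Holstein 2 lay within the Japanese Black range, so the breeds overlapped. The means were 4892 ± 1157 in Japanese Black and 8686 ± 2749 in Holstein (SD, n = 3 each). The difference was -0.80 (SE 0.25, 95% interval -1.36 to -0.23), with an unadjusted p of 0.0114 and an adjusted p of 0.321 in limma. It was -1.08 without Holstein 2 (adjusted p 0.112) and -0.60 without Holstein 3 (adjusted p 0.670). The unadjusted p was under 0.05 in 14 of 16 alternative fits, and above it without Holstein 3 (0.0527) and without moderated variances (0.0833), both in limma's fits over all probe sets. Within each breed the animals that were high for FLNC, Japanese Black 2 and Holstein 1 and 3, were also those high for ACTC1.

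DES, which encodes desmin, read 6083, 6541 and 8492 in Japanese Black and 7015, 9227 and 9082 in Holstein. Japanese Black 3 stood with the Holstein animals. The difference was -0.27 (95% interval -0.62 to 0.09), and -0.41 without Japanese Black 3. Smooth muscle also makes desmin. The summed markers of that tissue without DES, given above, were highest of all animals in Japanese Black 3. DES was highest in that animal only within its breed, as the Holstein values of 9227 and 9082 lay above it. The part of smooth muscle in the DES values was not tested.

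KLHL41, a kelch protein that stabilises nebulin and is needed for sarcomere integrity, read 6987, 7463 and 7619 in Japanese Black and 9943, 8641 and 8949.97 in Holstein, with no overlap. The difference was -0.32 (95% interval -0.54 to -0.09), with an unadjusted p of 0.0119 and an adjusted p of 0.325 in limma. The unadjusted p was under 0.05 in 12 of 16 alternative fits of limma. It was 0.0554 after quantile normalization, where the breeds overlapped, 0.0585 without the intensity trend, 0.0507 without Japanese Black 1 and 0.0523 without Holstein 1. UNC45B, the chaperone of muscle myosin, averaged 1672 ± 299 in Japanese Black and 1788 ± 64.1 in Holstein (SD, n = 3 each), a difference of -0.11 (95% interval -0.47 to 0.25).

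Further probe sets existed for 11 of the 27 genes and 15 of these 18 passed the filter on dim signals. They had the direction of the brightest probe set in 13 of 15 cases, the exceptions being a probe set of TCAP and a dim one of PDLIM7, each with an interval across 0. Of the 15, 4 had an unadjusted p under 0.05, or 26.7%, beside 12.6% of all probe sets. The second FLNC probe set averaged 1538 ± 458 in Japanese Black and 3230 ± 1260.3 in Holstein (SD, n = 3 each), a difference of -1.02 (SE 0.31, adjusted p 0.321). Both FLNC probe sets thus read lower on average in Japanese Black, with Holstein 2 inside the Japanese Black range at each.

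For NEB, ACTN1 and ACTN4 a dimmer probe set differed more than the brightest. At the second NEB probe set the signal was 808, 742 and 778 in Japanese Black and 619.7, 592 and 359 in Holstein. The breeds did not overlap there, with a difference of 0.59 (SE 0.22, adjusted p 0.351), and a further, much dimmer NEB probe set had 0.37. For ACTN1 the second probe set read 104.5, 104.5 and 103.97 in Japanese Black and 183, 159 and 242 in Holstein, a difference of -0.79 (SE 0.18, adjusted p 0.287). A dimmer ACTN4 probe set had -0.67 (SE 0.20, adjusted p 0.320), also without overlap. Dimmer probe sets of MYBPC1 and PDLIM3 had 0.30 and -0.30, beside 0.05 and -0.01 at the brightest, each with an interval across 0. With the mean over all probe sets in place of the brightest, NEB had a difference of 0.35 and did not overlap between the breeds (adjusted p 0.437).

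**Figure D4:**
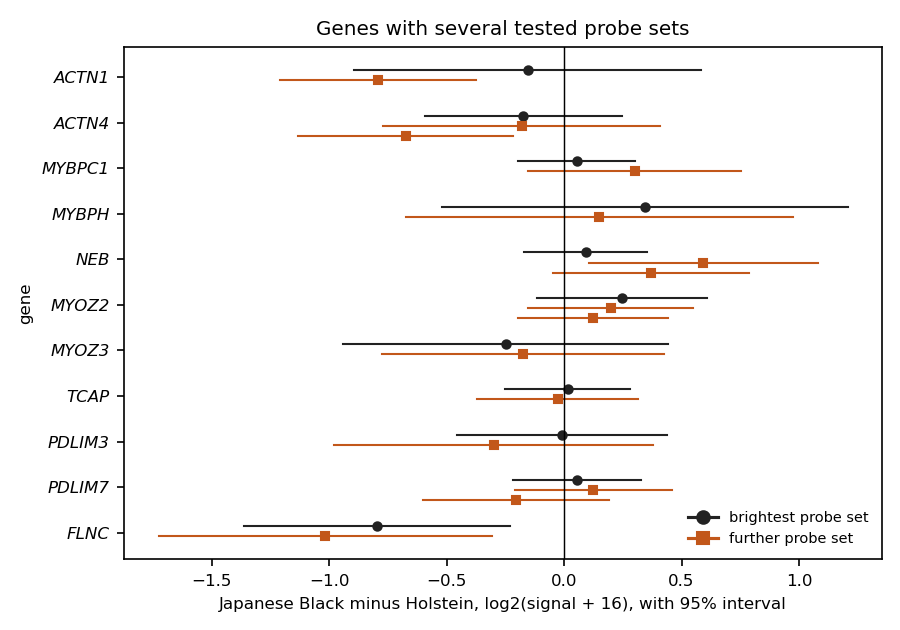
Difference between the breeds, with limma's 95% interval, at every tested probe set of the 11 genes with more than 1 of them. FLNC lies below 0 at both probe sets, whereas NEB, ACTN1 and ACTN4 have intervals off 0 only at a dimmer probe set.

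How often each animal was the lowest or the highest was counted over the members. Holstein 3 was the lowest animal for 7 members (MYBPC1, NEB, MYOT, MYOZ2 and the 3 CapZ genes) and the highest for 6 (ACTC1, ACTN2, ACTN3, ACTN4, PDLIM1 and FLNC). Those are 25.9% and 22.2% of the members, beside 27.6% and 24.3% of all probe sets tested, so an extreme Holstein 3 was as frequent over the whole array. Japanese Black 3 was the highest for 9 members, or 33.3%, beside 31.4% of all probe sets. Japanese Black 1 was the lowest for 7 members and the highest only for UNC45B, or 25.9% and 3.70%, beside 16.9% and 9.19% of all probe sets. Holstein 1 was the highest for 7, among them MYOT, LDB3, TMOD4 and KLHL41, which is 25.9% of the members, beside 11.5% of all probe sets. The median deviation of the members from their gene means lay between -0.09 and 0.09 in all animals.

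**Figure D5:**
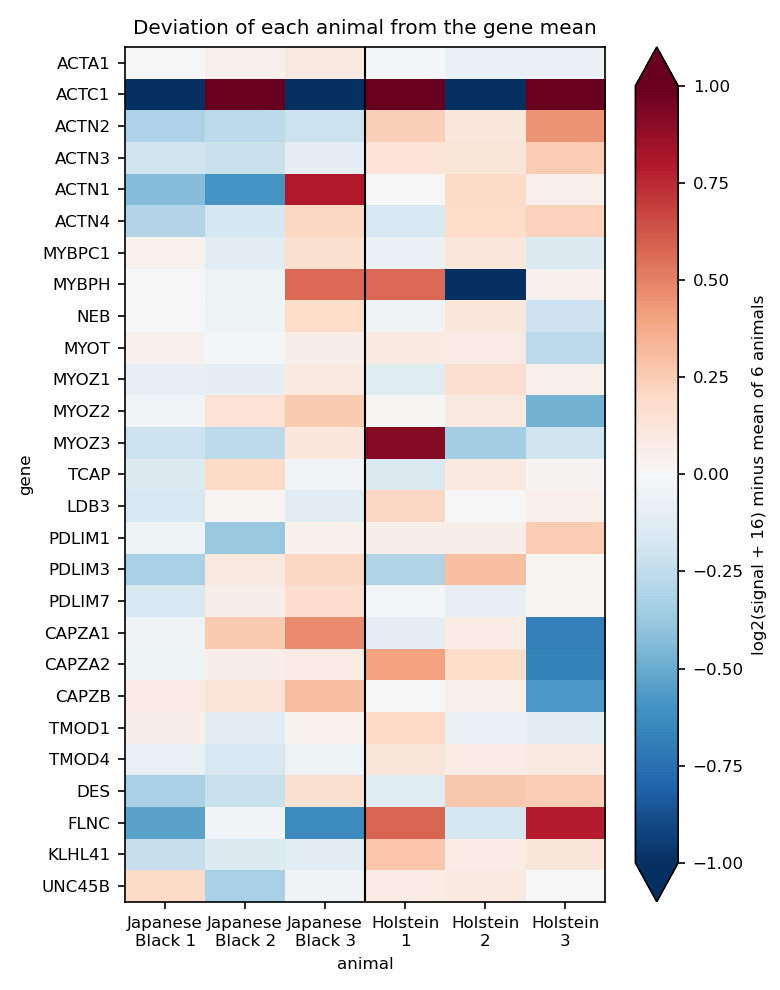
Deviation of each animal from the mean of the 6 for every gene, on the log2(signal + 16) scale, with colours ending at -1 and 1, beyond which ACTC1 and MYBPH reach. ACTN2, ACTN3, TMOD4 and KLHL41 lie below their mean in all 3 Japanese Black animals and above it in all 3 Holstein animals, and the CapZ genes are low in Holstein 3.

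The spread within breeds was low for some bright genes and high for a few members. It was below the median of all probe sets for 15 of the 27 genes. Bright genes above that median included FLNC, at a residual SD of 0.42, and DES and MYOZ2, at 0.24 each. TMOD4, ACTN3, KLHL41 and LDB3 joined ACTA1 in the lowest 10% of all probe sets, with residual SDs of 0.04 to 0.10. In the highest 10% were ACTC1, MYBPH at 0.66, ACTN1 at 0.54 and MYOZ3 at 0.50. The standard error of a difference therefore ran from 0.08 for ACTA1 to 1.28 for ACTC1, with a median of 0.15. The 16 myosin, troponin and tropomyosin genes measured for comparison had a median residual SD of 0.07, beside 0.18 for the members and 0.23 for all probe sets. Whether the level of the signal sets this spread was not tested.

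Other genes of the sarcomere and the costamere, from a list of 54 symbols, were measured in 34 cases. Of these 24 read lower and 10 higher in Japanese Black, at a median of -0.11, and 0 passed the adjusted threshold. At an unadjusted p under 0.05 there were 4 lower and 1 higher, or 14.7%, beside 12.6% of all probe sets. The breeds did not overlap for 9 of the 34, or 26.5%, beside 19.8%. FHOD3, a formin that assembles thin filaments, averaged 164 ± 8.67 in Japanese Black and 297 ± 66.1 in Holstein (SD, n = 3 each), a difference of -0.78 (SE 0.20, adjusted p 0.287). SYNPO, which encodes the actin-binding synaptopodin, had a difference of -0.39 (SE 0.14). LMOD1, a leiomodin of smooth muscle, had -0.40 and PDLIM2 -0.44. On the other side LIMCH1, an activator of non-muscle myosin, averaged 1399.7 ± 279 in Japanese Black and 758 ± 223 in Holstein (SD, n = 3 each), a difference of 0.89 (SE 0.24, adjusted p 0.300). The chaperone gene HSP90AA1 had 0.26 (SE 0.11) and did not pass. The adjusted p of all these lay at 0.287 or above.

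Myosins, troponins and tropomyosins, listed for comparison, were measured for 16 of 20 genes. Here 5 read lower and 11 higher in Japanese Black, at a median of 0.05 and with 0 past the adjusted threshold. At an unadjusted p under 0.05 there were 1 lower, MYL3, and 2 higher, MYL6B and MYL2, or 18.8%, beside 12.6% of all probe sets. For 7 of the 16, or 43.8%, the breeds did not overlap, beside 19.8% of all probe sets. The difference between these medians and that of the scaffold genes was not tested.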

How the data were processed

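The deposited values are linear intensities, 1 per probe set for each of the 6 arrays, and each array holds 1 steer. GCOS 1.1.1 and Affymetrix Expression Console 1.1 are named per the submitters' processing notes, and how probes were summarised or scaled is not given in the sources used here. Left out were the 112 control probe sets. An offset of 16 was added before log2, and the dimmest 25% by mean were dropped, which left 18012 of 24016. Breeds, as the labels give them, were compared unpaired with limma 3.58.1 in R 4.3.3 (intensity trend, 4.91 prior degrees of freedom). Tests were two-sided and p-values were adjusted by Benjamini-Hochberg over the 18012. The step was run on simulated data with independent normal noise, where the mean estimate of the largest planted difference came close to it. That run does not measure power or false calls in these data. A paired test is named in the series' design, but no label gives the pairs, and replicate numbers only name animals. Gene symbols are those of the platform annotation. All 27 genes matched RefSeq gene identifiers (ARS-UCD2.0) and 0 were renamed. No build is named, so no coordinates are given.

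Members and lists were chosen with earlier results of these data known. Every measured member was named. Those with an unadjusted p under 0.05 or without overlap, and ACTA1, NEB, DES, ACTN2 and ACTN3, were given by animal; other members given so were picked after their values were seen. Up to 6 other sarcomere genes and 4 contractile genes were named by p. Alternatives comprised offsets of 1 and 64, no filter or a filter of 50%, median centring, quantile normalization, array weights, fits without the trend or without moderation, probe set means, and leaving out each array. Figures used matplotlib 3.10.9 in Python 3.11.15.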

Additional observations from a re-analysis of the deposited data

How the results depend on the processing

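No member passed the adjusted threshold under any of 16 alternatives (0 in each), and the 11 genes followed through them kept their direction in all 176 values. Much of that was fixed in advance. The filter, the trend and the moderation do not enter the difference itself, and a gene without overlap cannot reverse when an array is left out. Most of the 11 were also picked by their p or lack of overlap in these same data. The count over all probe sets, 3, was 0 with an offset of 1, with the dimmer 50% left out and without moderated variances, 10 with array weights, and 0 to 15 when single arrays were left out. The 4 members lower at an unadjusted p under 0.05 numbered 3 to 7 when single arrays were left out, with 7 without Japanese Black 3. The count of higher members, 0, was 1 with median centring (CAPZA1) and without moderated variances (ACTA1), and 0 to 1 when arrays were left out. Members without overlap on the lower side, 5, numbered 3 after quantile normalization (ACTN2, ACTN3 and PDLIM1). They numbered 6 to 8 when arrays were left out, with 8 without Japanese Black 3 or Holstein 2, and the higher side, 2, numbered 2 to 5, with 5 without Japanese Black 1. Fewer animals overlap less often by construction. The shares of all probe sets without overlap or under an unadjusted p of 0.05 are not given for the alternative fits. The counts of members in those fits thus have no background to be read against. The median of the members lay between -0.12 and -0.03 throughout. No paired analysis was possible because no label ties an animal of one breed to an animal of the other. With 3 animals per breed and a median standard error of 0.15, small differences could not be detected.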
